A study of Rattus norvegicus with 4 samples.

Results

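Myelinating Schwann cells of 3 libraries are described here: 64 cells of library 1, 23 of library 2 and 103 of library 3. They make up 190 of the 24727 barcodes in those libraries in which 500 or more genes were detected and mitochondrial genes gave no more than 20% of UMIs (unique molecular identifiers, each counting 1 captured transcript). A barcode was taken as a myelinating Schwann cell where Prx, Cldn19, Mag and Gldn together gave at least 3 UMIs and at least 10 per 10,000 UMIs of the cell. Barcodes with more than 5 per 10,000 UMIs of the neuronal transcripts Snap25 and Stmn2 were left out. Levels of those 4 genes, and of all genes expressed with them, are therefore a description of how the cells were chosen, and no test was made on them.

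The series is a single-cell RNA profile of sciatic nerve and dorsal root ganglion from Sprague Dawley rats, at postnatal day 1 and at 8 weeks, with 1 library for each of the 4 combinations of tissue and age. Sex was recorded as not determined, and no treatment or allele is given for any group. The labels include a culture protocol for primary Schwann cells in medium with serum and say neither whether culture preceded sequencing nor how many animals gave each library. All 41444 barcodes are in 1 matrix, where a number from 1 to 4 marks the library, but the sources used here do not pair these numbers with the 4 tissue and age groups. The values below therefore compare single libraries, not tissues or ages. With 1 library a group there is no replicate check and no p-value, and all intervals are exact 95% intervals that cover counting error only.

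A myelinating Schwann cell wraps 1 segment of a peripheral axon in a spiral of its own membrane. The compacted layers hold abundant membrane proteins such as Pmp22, and Mbp binds them together on the cytoplasmic side. Around the compact myelin lie cytoplasmic channels, gap junctions and a basal lamina, and the membrane needs large amounts of cholesterol and galactolipid, made under the control of Egr2 (Krox20), Sox10 and the SREBP factors.

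The 64, 23 and 103 cells were 0.651% (0.502 to 0.831), 0.273% (0.173 to 0.409) and 1.59% (1.30 to 1.93) of the kept barcodes of libraries 1, 2 and 3. The same rule took 594 cells, 7.03%, in library 4. The neuronal limit removed no barcode in library 1, 183 in library 2 and 118 in library 3, and without it the shares were 2.445% and 3.41% in libraries 2 and 3. Over all kept barcodes, Snap25 and Stmn2 stood at 0.0247, 44.5 and 74.0 per 10,000 UMIs in libraries 1 to 3, and in the removed barcodes they had medians of 13.6 and 8.32 in libraries 2 and 3. The members of libraries 2 and 3 are thus those with the lowest neuronal signal among the barcodes that carry the 4 myelin genes.

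Members had median depths of 3051, 4268 and 5902 UMIs in libraries 1 to 3, with ranges of 1287 to 10896, 2018 to 9383 and 2070 to 20141, and medians of 1247, 1470 and 1920 detected genes. Their mitochondrial shares had medians of 8.84%, 9.26% and 9.59%. The 4 genes of the rule had medians per cell of 21.2, 26.4 and 29.6 per 10,000. In library 1, 7 members had exactly 3 UMIs of these genes, and 8 barcodes just outside had 2. Between 10 and 15 per 10,000 lay 17, 2 and 15 members, and between 5 and 10, just outside, lay 9, 2 and 13 barcodes. Of 41252 barcode sequences, 191 occurred in more than 1 library, among them those of 2 members, and no sequence was shared by 2 members. The Scrublet doublet caller marked 398 kept barcodes in library 1, 4 of them members, and none in libraries 2 and 3, where it cannot be said to have worked, so no doublets were removed.

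Prx (periaxin, which organises the outer sheath) was found at 6.33, 9.61 and 8.96 UMIs per 10,000 UMIs of the members of libraries 1, 2 and 3. Cldn19, a tight junction claudin of the sheath, stood at 7.87, 8.25 and 14.04. Mag, the adhesion protein facing the axon, stood at 4.10, 3.45 and 5.16, and Gldn (gliomedin, which gathers sodium channels at nodes of Ranvier) at 2.87, 5.35 and 3.34. In library 3, Cldn19 was seen in all 103 members, Mag in 70 and Gldn in 71. The rule did not name the Schwann lineage markers Sox10, S100b, Erbb3 and Cdh19. They summed to 10.6, 40.5 and 14.1 per 10,000 in the members and to 0.707, 6.06 and 0.855 in all other kept barcodes. Other glial cells of the same libraries, which were chosen by these markers, had 25.3, 26.8 and 21.1, above the members in libraries 1 and 3. In the members of library 2, S100b gave 394 of the 446 UMIs.

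Markers of other cell types were also present. The 6 fibroblast markers (Col1a1, Col1a2, Col3a1, Dcn, Lum and Pdgfra) summed to 102 per 10,000 in the members of library 1, 7.35 in library 2 and 18.3 in library 3, with medians per cell of 26.6, 6.598 and 10.5. In library 1 all 64 members carried some, from 12.6 to 875, and 3 cells were above 100. In library 2, Col1a1 gave 79 of the 81 UMIs, and 3 of the 6 markers were at 0. The 7 macrophage markers summed to 15.2, 11.9 and 0.124, from 25, 3 and 4 cells, so the median cell of each library had none. The 2 measured red cell genes, Hbb among them, summed to 27.8 in library 3 against 0.182 and 0.0907 in libraries 1 and 2. Markers of T or NK cells summed to at most 0.0907, endothelial markers to at most 0.544 and mural markers to at most 0.854. Counting a sum of 20 or more over any of the fibroblast, macrophage, endothelial, mural, lymphoid, neutrophil or erythroid lists, 52 of 64, 2 of 23 and 27 of 103 members carried such markers. Neuronal and glial lists are not in that count: 7 neuronal markers summed to 0.501, 23.7 and 13.99 and reached 20 in 0, 15 and 19 members, and 5 satellite glia markers summed to 39.5, 19.6 and 4.26 and reached 20 in 16, 5 and 1. Whether these came from free RNA, doublets or the cells themselves was not tested.

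Compact myelin genes took a large share of the transcripts in all 3 libraries. A list of 7 such genes, among them Mbp, Pmp22, Mal, Pmp2 and Pllp, made up 903 (890 to 915) per 10,000 UMIs in library 1, 1382 in library 2 and 895 in library 3. Other glial cells of the same libraries, which carried Schwann lineage markers but did not meet the rule, had 117, 51.8 and 89.7. All other kept barcodes had 9.71, 29.6 and 15.7. Satellite glia markers summed to 180, 856 and 88.0 per 10,000 in the other glia, so these were not alike across libraries. The members lay above the other glia of their own library in all 3. The rule selects for myelin genes, and the other glia exclude barcodes that meet it, so this order describes the selection.

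Mbp stood at 82.2, 88.7 and 100 (97.6 to 102) per 10,000 in libraries 1 to 3. Per cell it ran from 4.73 to 184 in library 1 with a median of 80.9, from 27.2 to 171 with a median of 79.4 in library 2, and from 8.99 to 292 with a median of 63.8 in library 3. The ranges overlapped across all libraries, and library 3 held the highest cell. Each cell of the 3 libraries had Mbp and Pmp22. Fibroblast-marked cells served as a background that should lack Mbp. They had 50 or more per 10,000 UMIs of fibroblast markers, no UMI of the Schwann lineage markers and fewer than 3 of the rule genes. Cells that took up free Schwann cell RNA can fail these limits, so the background may understate such RNA for every gene set against it. With every cell thinned to 2000 UMIs, 1.58%, 0.813% and 2.64% of the fibroblast-marked cells of libraries 1 to 3 had an Mbp UMI, against 100% of the members. Pmp22 has no such background, since 72.5%, 65.45% and 69.4% of the fibroblast-marked cells also had it.

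Pmp22, whose gene dosage sets myelin stability, stood at 249, 373 and 284 per 10,000. Mal, a raft proteolipid, was even at 20.4, 21.0 and 18.3, with intervals that overlapped. Pllp (plasmolipin) stood at 10.97, 15.96 and 6.94. Pmp2 differed far more between libraries than Mbp, Pmp22, Mal and Pllp.

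Pmp2, the fatty acid binding protein of peripheral myelin, was almost absent from the members of library 1, at 7 UMIs in 6 of 64 cells, or 0.319 (0.128 to 0.656) per 10,000. In library 2 it was found in 6 of 23 cells at 7.62 (6.08 to 9.43), but 55 of its 84 UMIs lay in 1 cell. In library 3 it was found in 98 of 103 cells at 24.6 (23.4 to 25.8), from 0 to 99.5 per cell with a median of 16.7. At 2000 UMIs per cell, 6.90%, 21.7% and 88.3% of members had a UMI, against 0.519%, 0.407% and 1.001% of fibroblast-marked cells. Other glia had 2.19, 1.78 and 6.15 per 10,000 of Pmp2 in libraries 1 to 3, above the members in library 1 only. Library 4 was close to library 3 in its members, at 27.5 per 10,000. The barcodes that the neuronal limit removed had 4.10 in library 2 and 23.2 in library 3.

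**Figure D1:**
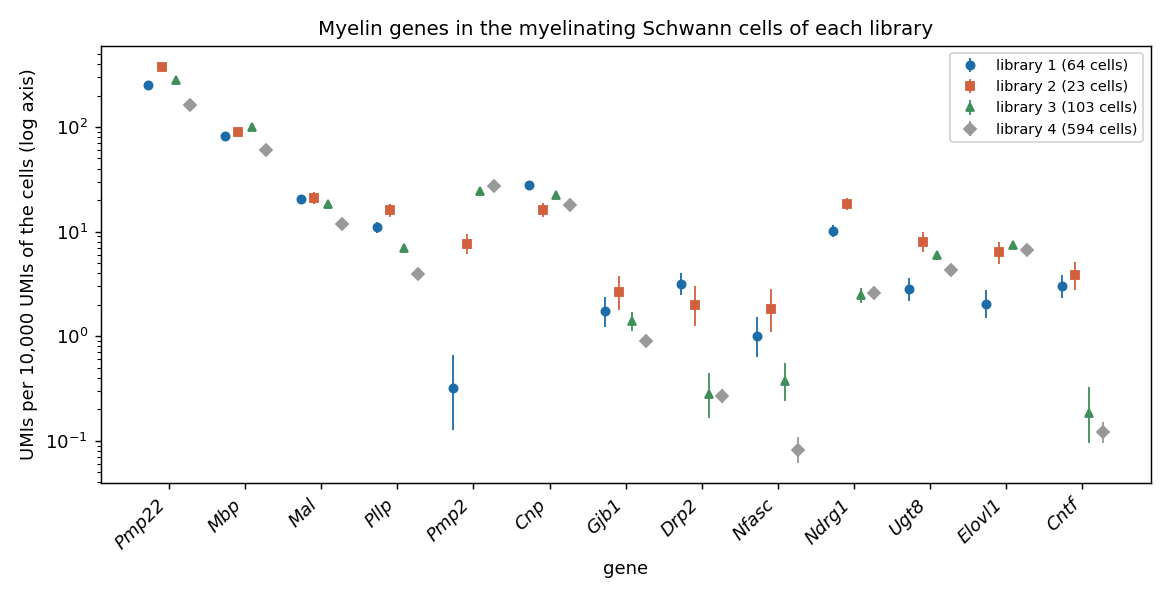
Levels of 13 myelin genes (UMIs per 10,000 UMIs summed over the cells, log axis) in the myelinating Schwann cells of libraries 1, 2 and 3, with library 4 under the same rule for reference. Points are libraries and bars are exact 95% counting intervals, and Pmp2 runs from 0.319 in library 1 to 24.6 in library 3 while Mbp stays between 82.2 and 100 in libraries 1 to 3.

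Of 598 genes with at least 20 UMIs in the members of each of the 3 libraries, 97 were at least 2 times as high in members as in all other kept barcodes in every library, and 23 at least 10 times. The 12 genes highest by their smallest ratio over the 3 libraries included Slc36a2, Bcas1, Gjb1, Emid1, Mal, Mbp, Pllp, Ugt8, Fa2h, Pmp22 and Secisbp2l. Of the 12, 5 were compact myelin genes, and 2 more, Ugt8 and Fa2h, make the galactolipids of the sheath. Slc36a2, an amino acid transporter, led with a smallest ratio of 110, at 1.82, 3.08 and 1.04 per 10,000 in libraries 1, 2 and 3 against 0.000822, 0.028 and 0.00687 in the other barcodes. Bcas1, known from newly myelinating oligodendrocytes, stood at 7.46, 5.26 and 7.66, with a smallest ratio of 77.6. Emid1 stood at 2.50, 3.45 and 7.07, and Secisbp2l at 12.8, 17.1 and 18.5. None of these 4 genes was used in the rule or in the lists, yet each was chosen here for its level in these cells.

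Among genes of the sheath outside compact myelin, Gjb1 (connexin 32, the gap junction channel of the paranodal loops) stood at 1.73, 2.63 and 1.40 per 10,000 in libraries 1 to 3, and Cnp at 27.6, 16.2 and 22.4. Dag1 (dystroglycan, the laminin receptor) stood at 5.23, 6.53 and 7.10 and its partner Utrn at 3.64, 3.35 and 4.58. Drp2, which links dystroglycan to periaxin in the appositions that bound Cajal bands, did not follow them: it stood at 3.19 (2.48 to 4.02) and 1.995 (1.25 to 3.02) in libraries 1 and 2 and at 0.280 (0.166 to 0.442) in library 3. At equal depth it was seen in 37.9%, 39.1% and 5.83% of cells, against at most 0.407% of fibroblast-marked cells. Nfasc, of the paranodal junction, stood at 1.00, 1.81 and 0.373, and Itgb4, a laminin receptor chain of mature Schwann cells, at 3.64, 3.54 and 0.652. Itga6, its partner chain, stood at 2.96, 2.81 and 3.35. Library 4 had 0.267 of Drp2, 0.0824 of Nfasc and 0.926 of Itgb4.

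Other genes with levels in library 3 below those of both other libraries were chosen after their values were seen. Cntf, a survival factor for motor neurons stored in Schwann cells, was at 3.003 (2.32 to 3.82), 3.81 (2.75 to 5.15) and 0.186 (0.0963 to 0.326) per 10,000 in libraries 1, 2 and 3. Its cells numbered 27 of 64, 16 of 23 and 11 of 103. Kcnk1, a potassium leak channel, stood at 2.41, 2.72 and 0.544. Ndrg1, which is mutated in a demyelinating neuropathy, stood at 10.1 (8.82 to 11.5), 18.4 (15.96 to 21.1) and 2.45 (2.09 to 2.87). None of these intervals in library 3 reached those of libraries 1 and 2. In the barcodes removed by the neuronal limit, Cntf stood at 3.34 in library 2 and 0.0759 in library 3, and Ndrg1 at 10.7 and 2.39.

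Levels in library 3 above those of libraries 1 and 2, likewise chosen after their values were seen, were found for Csrp2, a cytoskeletal LIM protein. Csrp2 stood at 8.14, 0.181 and 64.1 per 10,000, in 40 of 64, 2 of 23 and all 103 cells. At equal depth 24.9%, 10.98% and 52.7% of fibroblast-marked cells also had it, against 53.45%, 8.70% and 100% of members, so the share in library 2 lay below that background. Ednrb, the endothelin B receptor of immature Schwann cells, had 4 UMIs in library 1 and 0 in library 2. That 0 allows up to 0.3345 per 10,000. Library 3 had 100 UMIs of Ednrb, or 1.55 (1.26 to 1.89) per 10,000. Gap43 had 0 UMIs in library 1, which allows up to 0.168, and stood at 1.72 and 1.43 in libraries 2 and 3. There its share of fibroblast-marked cells at equal depth (26.4% and 31.0%) was above that of the members (26.1% and 24.3%). Ribosomal protein genes took 8.42%, 6.15% and 14.97% of the UMIs of the members.

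**Figure D2:**
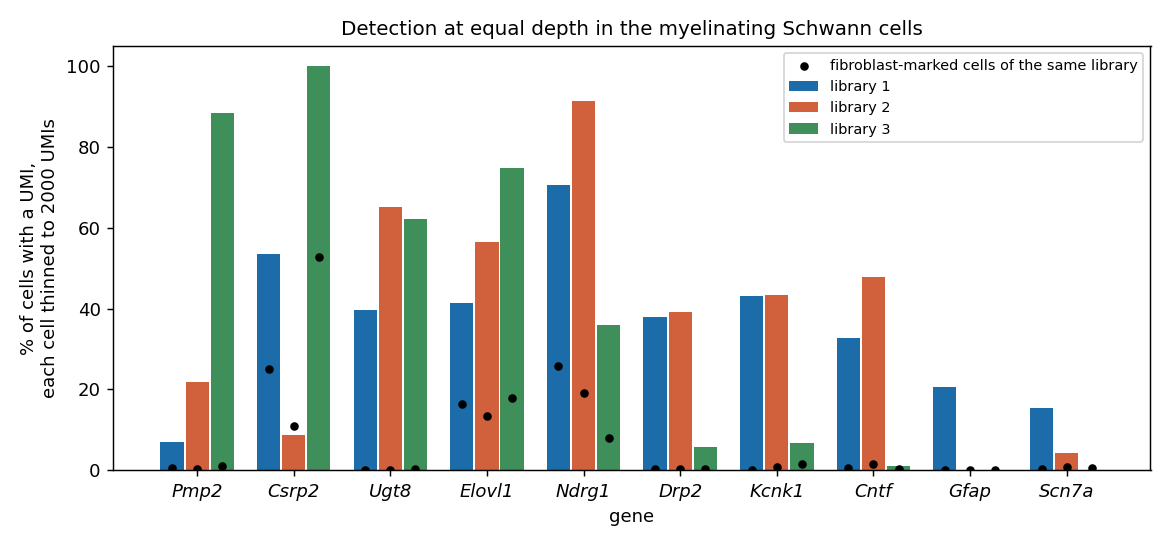
Share of myelinating Schwann cells with a UMI of 10 genes, each cell thinned to 2000 UMIs (58, 23 and 103 cells of libraries 1, 2 and 3; shallower cells left out), with black dots for the fibroblast-marked cells of the same library. Drp2 is seen in 37.9%, 39.1% and 5.83% of cells and Pmp2 in 6.90%, 21.7% and 88.3%.

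Regulators of myelination were seen in all 3 libraries. Egr2, the transcription factor that switches on myelin genes, stood at 2.41 (1.81 to 3.15), 4.26 (3.13 to 5.67) and 1.63 (1.33 to 1.97) per 10,000. At equal depth 29.3%, 60.9% and 27.2% of cells had it, against 5.62%, 11.4% and 12.4% of fibroblast-marked cells. Sox10, which defines the glial lineage, stood at 1.09, 1.995 and 1.26, and Erbb3, the neuregulin receptor that signals with its partner Erbb2, at 0.910, 1.45 and 1.83. The list of 16 measured regulators summed to 10.8, 10.9 and 9.72 in members and 11.2, 11.3 and 12.5 in other glia, so its level was not above that of other glia in any library. Mki67, a marker of dividing cells, had 1 UMI in library 1 and 0 in libraries 2 and 3.

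The share of compact myelin transcripts differed widely among cells of 1 library. It ran from 1.05% to 18.1% of a cell's UMIs in library 1 with a median of 10.1%, from 4.2% to 22.9% in library 2 with a median of 13.1%, and from 0.633% to 23.3% in library 3 with a median of 4.53%. The highest cell was 17.3, 5.46 and 36.8 times the lowest. To describe what went with it, the cells of each library were parted at the median, a split chosen after the data were seen, and other genes were counted per 10,000 UMIs outside the compact myelin genes.

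In library 3 the 51 cells above the median had 91.2 (87.9 to 94.6) per 10,000 of the 17 sterol synthesis genes and the 52 others 17.3 (15.8 to 19.0), a difference of 5.26-fold. Hmgcs1, the first committed enzyme of the pathway, stood at 14.9 against 1.82, Idi1 at 12.7 against 2.67, Fdps at 15.7 against 4.08 and Msmo1 at 12.8 against 2.30. Of the 10 genes furthest apart on the side of the cells rich in compact myelin, 6 make sterols, among them Hmgcs1, Ebp, Pmvk, Fdft1 and Msmo1, of which Ebp and Pmvk were on no list. Cd9, a tetraspanin, stood at 36.1 against 5.23, and Mme at 2.05 against 0.111. These 10 were picked by the bound of their counting interval nearest to no difference, after the values were seen. The median depth of the 2 groups was 6579 and 5070 UMIs, and the median mitochondrial share 9.41% and 9.64%.

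Sheath and junction genes, summed over their list, lay on the same side in library 3, at 67.6 against 39.4 per 10,000. Ugt8, which makes galactosylceramide, stood at 10.3 against 1.97 and Ndrg1 at 4.10 against 1.04. Of the rule's own genes, Mag stood at 8.65 against 2.15 and Gldn at 5.49 against 1.52, while Prx (12.03 against 7.27) and Cldn19 (18.5 against 11.8) differed less. All 18 UMIs of Drp2, in 15 cells, lay in the cells above the median. Its log2 ratio was 2.35 with a floor of 3 UMIs, and its interval reached down to 1.90. Egr2 was on the other side at 1.23 (0.875 to 1.68) against 2.45 (1.89 to 3.12), and Bcas1 stood at 7.73 against 9.20 with overlapping intervals.

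The cells of library 3 with less compact myelin had more of the cell cycle inhibitor Cdkn1c, at 11.8 against 1.67 per 10,000, in 42 of 52 cells against 26 of 51. Postn stood at 2.004 against 0.158, Ntm at 1.22 against 0.0631, Fbln5 at 1.52 against 0.189 and Lmo4 at 12.1 against 3.73. Hbb, a hemoglobin chain of red cells, was also on this side at 49.5 against 14.2, in 49 cells of each group, but 1 cell held 536 of its 1784 UMIs and the median cell had 5.53 per 10,000. The fibroblast list stood at 17.9 in these cells and 22.0 in the cells above the median. The part of red cell or fibroblast RNA in the other differences was not tested.

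In library 1 the split went with other cell type markers. The 32 cells above the median had 31.0 (27.5 to 34.8) per 10,000 of the fibroblast markers and the 32 others 184 (176 to 192). Nonmyelinating Schwann cell markers stood at 0.536 against 11.8, and Gfap, an intermediate filament of nonmyelinating and repair Schwann cells, gave 3 UMIs against 74. Of the 17 cells of library 1 with Gfap, 9 also had Scn7a, a sodium channel of nonmyelinating Schwann cells, and in 7 cells the nonmyelinating list reached 20 per 10,000. Apoe (72.8 against 1.82), Apod (78.9 against 4.40), Dcn (59.2 against 4.40) and Cd74 (18.2 against 0.322) led the low cells. In library 1, however, 168 of the 197 UMIs of Cd74 and 319 of the 673 of Dcn lay in 1 cell for each gene, and 3 cells were above 100 per 10,000 of fibroblast markers against a median of 26.6. Some cells that meet the rule in library 1 thus also carry markers of nonmyelinating Schwann cells, fibroblasts or macrophages.

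Sterol synthesis differed less with the split in library 1, at 69.9 (64.7 to 75.5) against 39.1 (35.4 to 43.0), and Ugt8 stood at 5.04 against 1.41, Cntf at 5.47 against 1.41, Drp2 at 4.83 against 2.34 and Spp1 (osteopontin) at 3.86 against 0.0937 with 36 UMIs in 8 cells. In library 2, with 11 and 12 cells, sterol synthesis stood at 31.2 (26.4 to 36.6) against 30.5 (25.7 to 35.9), and Ugt8 at 13.2 (10.1 to 16.9) against 5.43 (3.55 to 7.96). Across the cells, the Spearman correlation of compact myelin share with sterol synthesis was 0.30 over 64 cells of library 1, 0.36 over 23 of library 2 and 0.77 over 103 of library 3, and with Ugt8 it was 0.52, 0.78 and 0.79. The cells of 1 library share their library and their dissociation, and shallow cells give noisier values, so these are descriptions.

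**Figure D3:**
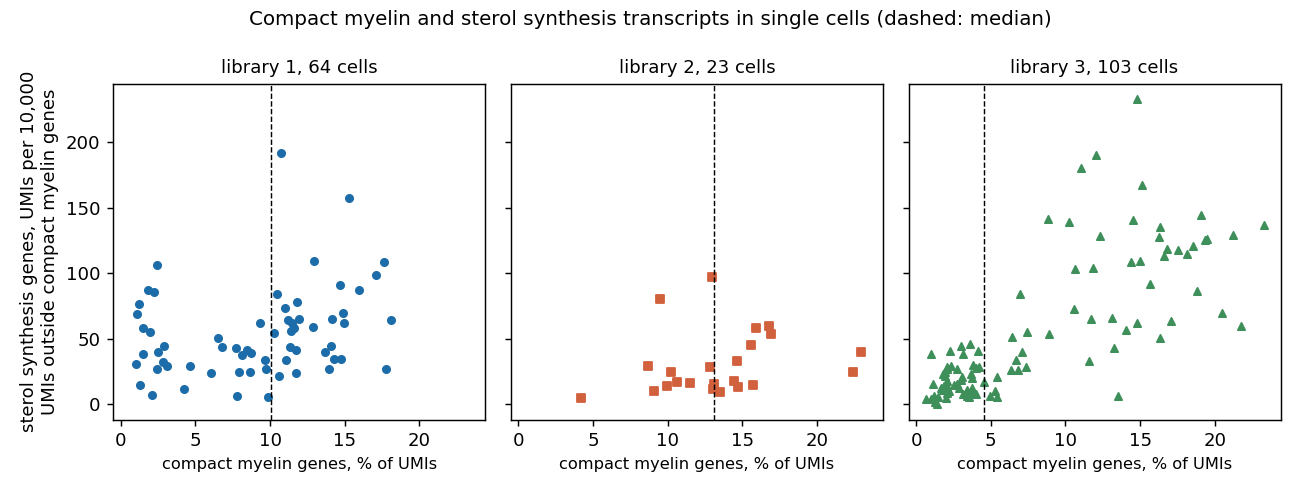
Each point is 1 myelinating Schwann cell, with the share of its UMIs from 7 compact myelin genes (percent, horizontal) and its sterol synthesis UMIs per 10,000 UMIs outside those genes (vertical); dashed lines are the medians of 10.1%, 13.1% and 4.53%. In library 3 the cells above the median have 91.2 sterol synthesis UMIs per 10,000 and the others 17.3, and in library 2 the values are 31.2 and 30.5.

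Libraries 1 and 2 were then compared gene by gene over their 64 and 23 members. Of 1670 genes with at least 20 UMIs on 1 side, 133 (7.96%) were at least 2-fold higher in library 2 with a counting interval wholly on that side, and 311 (18.6%) were so in library 1, while 1226 met neither. The median log2 ratio of library 2 over library 1 was -0.27 over all tested genes. Centred on that median, a step that balances the 2 sides by construction, the counts were 211 and 217, and with every cell thinned to 2000 UMIs they were 66 and 170 of 874 tested genes. Of the 133 and 311 genes, 55 and 118 were also at least 2 times as high in the members as in the rest of their own library, and 55 and 98 were not above the rest at all. Without the members that carried markers of other cell types, which left 12 and 21 cells, 110 of 714 tested genes were higher in library 2 and 61 in library 1. With the neuronal limit dropped, 427 of 4094 were higher in library 2 and 394 in library 1.

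**Figure D4:**
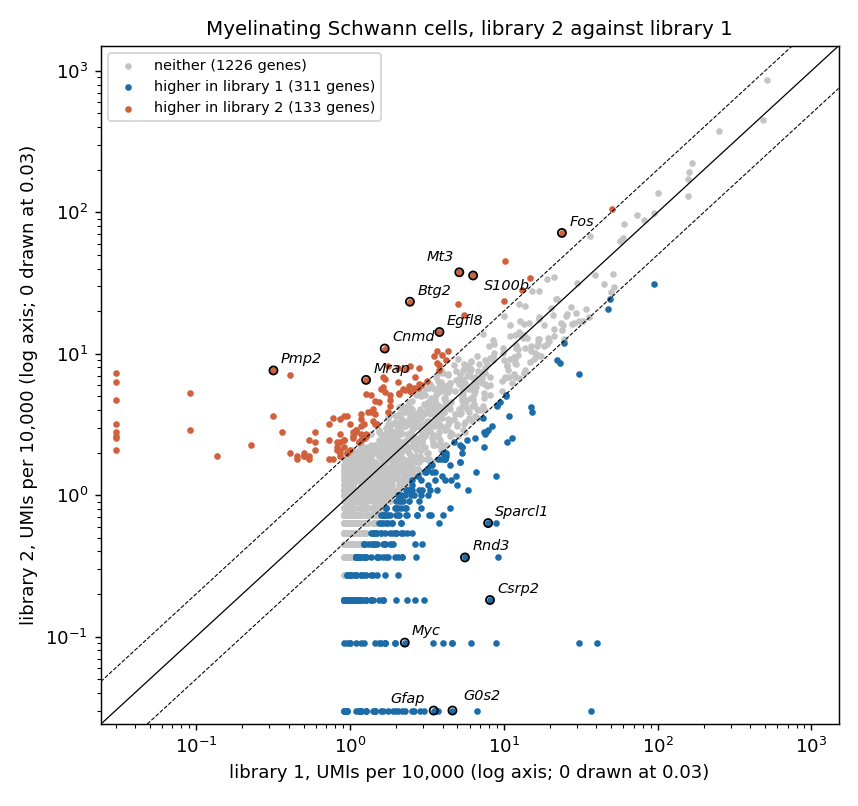
Levels (UMIs per 10,000, log axes) of the 1670 tested genes in the myelinating Schwann cells of library 1 (horizontal) and library 2 (vertical), with lines at equality and at 2-fold. Orange points are the 133 genes higher in library 2 and blue points the 311 higher in library 1, with Pmp2 (0.319 and 7.62) and Csrp2 (8.14 and 0.181) on opposite sides of the diagonal.

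The 12 genes named as furthest apart on the side of library 2 were Pmp2, Btg2, Mt3, S100b, Cnmd, Mt1, Cwc25, Mrap, Egfl8, Sgk1, Serpine2 and Fos. Pmp2 was 23.9-fold higher (11.1 to 61.3), and its log2 ratio of 4.58 was 3.17 without the cell that held most of it and 2.26 with a mitochondrial limit of 10%. Mt3, a zinc-binding metallothionein, stood at 5.14 per 10,000 in 34 of 64 cells of library 1 and at 37.6 in all 23 cells of library 2, a 7.32-fold difference (5.93 to 9.09), but the other barcodes of library 2 also had 14.7 of it against 0.0156 in library 1. Mt1, a second metallothionein, was 4.45-fold higher (3.55 to 5.62). S100b, a calcium-binding protein of Schwann cells, was 5.65-fold higher (4.64 to 6.91), at 6.33 and 35.7, with 10.8 in library 3. Other glia had 15.5 and 22.5 of it in libraries 1 and 2.

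Cnmd (chondromodulin, a secreted inhibitor of vessel growth) stood at 1.68 in library 1, 10.9 in library 2 and 0.435 in library 3, a 6.46-fold difference (4.44 to 9.62) between the first pair, and was seen in 17 of 64, 18 of 23 and 21 of 103 cells. Other glia of libraries 1 and 2 had 1.07 and 5.55 of it. Mrap, an accessory protein of melanocortin receptors, was 5.12-fold higher (3.27 to 8.24), at 1.27 and 6.53 with 3.60 in library 3. Egfl8 was 3.73-fold higher (2.84 to 4.92), the protease inhibitor Serpine2 3.90-fold (2.69 to 5.71) and the kinase Sgk1 4.21-fold (2.79 to 6.44). Cwc25 rested on few cells: 23 of its 31 UMIs in library 2 lay in 1 cell, and without that cell its log2 ratio of 2.95 was 1.12.

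The 12 genes named on the side of library 1 were G0s2, Csrp2, Gfap, Sparcl1, Rnd3, Sostdc1, Myc, Tap1, Nasp, Igtp, Mylip and Prrg4. Csrp2 gave 179 UMIs in library 1 and 2 in library 2, a ratio of 44.9 (12.2 to 374) taken from the UMIs with no floor. Sparcl1, a matrix protein, was 12.5-fold higher in library 1 (5.93 to 31.5), at 7.92 against 0.635, with 8.04 in library 3. Rnd3, a small GTPase of the cytoskeleton, was 15.4-fold higher (5.88 to 57.5), at 5.60 against 0.363. Other glia of library 1 stood above its members for Sparcl1 (11.6 per 10,000) and Rnd3 (11.1) and below them for Csrp2 (1.14). At equal depth Rnd3 was in 8.70% of the cells of library 2 against 43.1% of its fibroblast-marked cells.

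Gfap was at least 10.2-fold higher in library 1 by its counting interval, with 77 UMIs in 17 cells against 0. That 0 allows up to 0.3345 per 10,000 in library 2. Other glia of library 1 had 9.06 per 10,000 of Gfap and those of library 2 had 0.308. G0s2 was at least 13.6-fold higher, but 66 of its 102 UMIs lay in 1 cell, and the log2 ratio without it was -2.61. Sostdc1, a BMP antagonist, gave 67 UMIs against 2, a ratio of 16.8 (4.47 to 142), also with no floor. Myc gave 50 UMIs in 25 cells against 1. Other glia of library 1 also stood above its members for Sostdc1 (7.01 against 3.05 per 10,000) and Myc (5.32 against 2.275). Tap1 (32 UMIs in 24 cells) and Igtp (26 in 14 cells), both induced by interferons, gave none in library 2. Nasp gave 52 UMIs against 2, Prrg4 37 against 1 and Mylip 25 against 0. For G0s2, Tap1, Igtp, Nasp, Prrg4 and Mylip the other glia of library 1 stood below its members. All 24 named genes kept their direction in the 10 alternatives run for single genes, but some ratios moved. The genes were picked as furthest apart in these same cells, so a kept direction is no independent check. G0s2, Gfap, Tap1, Igtp and Mylip gave 0 UMIs in library 2. With members that carried markers of other cell types left out, their direction was fixed by the floor of 3 UMIs and the UMI totals. Without members that carried markers of other cell types, the log2 ratios of G0s2, Gfap and Myc were -1.22, -1.64 and -1.96, against -4.09, -3.69 and -3.06 over all members. In that setting 12 and 21 cells were left, and the counts of these genes lay at or near the floor of 3 UMIs a side. Their ratios there came mostly from the UMI totals of the 2 libraries, and that of G0s2 wholly so. They do not measure a remaining difference. With the neuronal limit dropped, those of Csrp2, Sparcl1 and Rnd3 were -2.375, -1.97 and -2.38, against -4.90, -3.64 and -3.95.

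Gene lists covering the biology of the sheath were read beside the 2 background shares of 7.96% and 18.6%. Compact myelin had a median log2 ratio of 0.54 over 7 genes. Pmp2 was its 1 gene past the fold, and Pmp22 was 1.496 times (1.44 to 1.56) as high in library 2. None of the 11 tested sheath and junction genes was past the fold, with a median of -0.11 that is above 0 when ratios are centred on all genes. Among 8 fatty acid and sphingolipid genes the median was 0.71, and 2 were higher in library 2: Ugt8 at 2.82 against 7.98 per 10,000 (2.83-fold, 2.02 to 3.98), and Elovl1, which lengthens fatty acids, at 2.05 against 6.35 (3.1-fold, 2.1 to 4.61).

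The 11 tested sterol synthesis genes had a median log2 ratio of -0.71. Of them, 3 were past the fold on the side of library 1, close to the background share of 18.6%, among them Idi1, at 15.2 in library 1 against 3.90 in library 2 (3.91-fold, 2.84 to 5.50), and Cyp51 at 4.23 against 1.90 (2.22-fold, 1.37 to 3.76). None was higher in library 2. In other glia the list ran the other way, with 48.0 per 10,000 in library 1 and 92.3 in library 2, against 48.6 and 26.6 in the members. Those other glia also differed in satellite glia markers, at 180 and 856 per 10,000, so they are not like sets of cells. Among 7 tested regulators, Srebf2, which drives sterol genes, gave 24 UMIs against 4 and was the 1 gene past the fold, on the side of library 1, and the list's median of -0.90 turned positive in 3 of the alternatives.

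Immediate early genes, which respond within minutes to outside signals, gave the highest count on the side of library 2. Of 11 tested, 7 were higher there (Fos, Fosb, Junb, Jund, Egr1, Btg2 and Nr4a1), none in library 1, and the median log2 ratio was 1.20. Fos stood at 23.9 per 10,000 in library 1, 71.5 in library 2 and 19.2 in library 3, with medians per cell of 7.20, 58.4 and 14.5 and ranges that overlapped. Btg2 stood at 2.46 and 23.3 and was 9.49-fold higher (7.05 to 12.97). Summed over 12 genes, the list stood at 83.0 and 214 per 10,000 in the members of libraries 1 and 2, at 79.9 and 218 in their other glia, and at 58.2 and 187 in their fibroblast-marked cells. A higher level in library 2 was therefore also measured in the other cells. Jun, counted with the immature and repair genes, was 2.14-fold higher (1.82 to 2.52). Of 8 tested heat shock genes, the median was -0.51, and Hspa5, a chaperone of the endoplasmic reticulum, was the 1 past the fold, on the side of library 1.

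Antigen presentation genes lay on the side of library 1, with 8 of 9 past the fold and a median log2 ratio of -2.91. The 5 class II genes Cd74, RT1-Da, RT1-Db1, RT1-Ba and RT1-Bb gave 475 UMIs in 28 cells of library 1, but 1 cell held 415 of them and had 207 per 10,000 of macrophage markers. Class I genes were spread over more cells: RT1-A1 gave 36 UMIs in 24 cells against 4 in library 2, RT1-A2 30 in 21 cells against 5, and B2m, at 24.8 against 12.6 per 10,000, was in all 64 and in 22 of 23 cells. The whole list stood at 128 per 10,000 in the other barcodes of library 1 and 27.7 in those of library 2. Without members that carried markers of other cell types, its median was -0.41. All 3 tested chemokines (Ccl2, Cxcl1 and Cxcl2) were on the side of library 1, with a median of -3.40, but 56 of 98, 54 of 135 and 51 of 63 UMIs of library 1 lay in 1 cell for each gene. At equal depth 17.2% of cells had Ccl2 in library 1 and 26.1% in library 2, and other glia had 32.7 and 31.1 per 10,000 of the whole list.

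**Figure D5:**
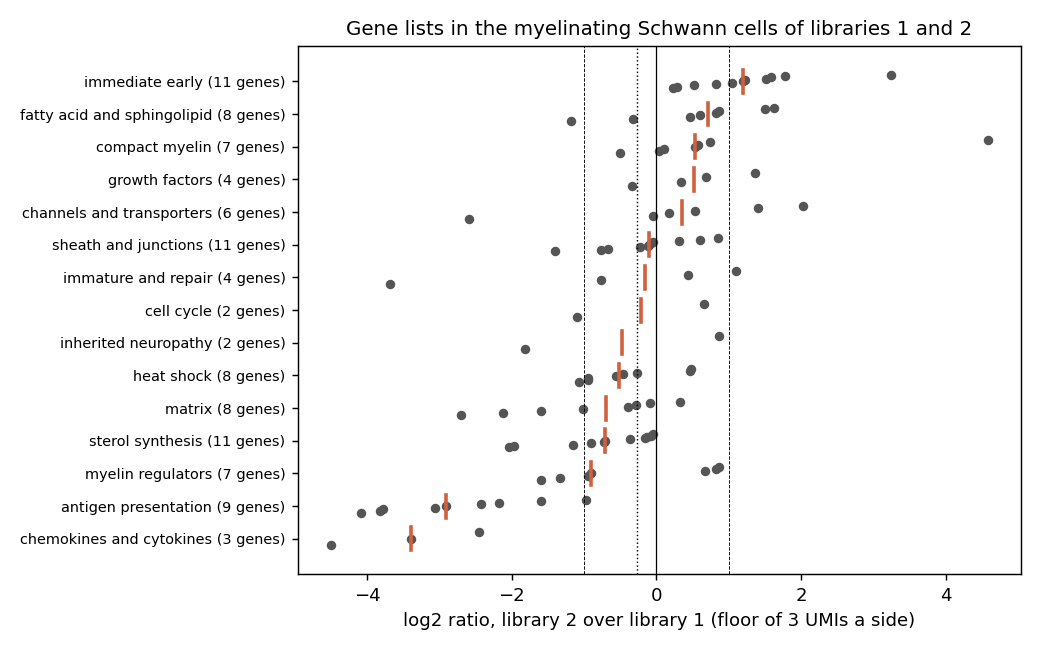
Log2 ratios of library 2 over library 1 for the tested genes of 15 lists (dots), with the list median as an orange bar, the median of all 1670 genes (-0.27) dotted, and 2-fold dashed. Immediate early genes have a median of 1.20 and antigen presentation genes one of -2.91, and most other lists span 0.

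Matrix genes had a median of -0.70 over 8 genes, and 4 were past the fold on the side of library 1: Sparc (48.9 against 24.2 per 10,000), Lama2 (26 UMIs against 2), Lamb2 (24 against 4) and Fn1 (39 against 0). The other barcodes of libraries 1 and 2 had 233 and 14.2 per 10,000 of Sparc, and the fibroblast markers of the members stood at 102 and 7.35. Without members carrying other markers the median of the list was 0.03. Lamb1 and Col4a1, basal lamina genes, were 1.31 and 1.07 times as high in library 1, with intervals that held 1.

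Ion channels and transporters were mixed. Kcna2, a voltage-gated potassium channel subunit, stood at 1.09 and 2.90 per 10,000 (2.66-fold higher in library 2, 1.52 to 4.71), while Kcna1 was even at 1.502 and 1.45. Of the 6 tested genes, 2 were past the fold on the side of library 2, Kcna2 among them. Scn7a, with 36 UMIs against 2, was on the side of library 1, and the median over the 6 was 0.35. Dhh (Desert hedgehog, the Schwann cell signal that forms the perineurium) was 2.57-fold higher in library 2 (1.46 to 4.58), the only one of 4 tested growth factors past the fold, and the median was 0.52. The remaining lists had few tested genes: immature and repair genes had a median of -0.16 over 4, which is above 0 when centred, with Jun and Gfap past the fold on opposite sides. Inherited neuropathy genes had a median of -0.47 over 2 with Litaf (28 UMIs against 4) higher in library 1, and cell cycle genes one of -0.21 over 2, above 0 when centred, with none past the fold.

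The barcodes that failed only the neuronal limit in library 2 give a second reading of that library, with more neuronal RNA (50.01 per 10,000 of 7 neuronal markers, against 23.7 in the members). Their levels per 10,000 stood at 25.4 of S100b, 29.1 of Mt3, 6.79 of Cnmd, 23.7 of Btg2 and 92.5 of Fos, each above the library 1 members' 6.33, 5.14, 1.68, 2.46 and 23.9. For genes of the library 1 side they had 1.798 of Csrp2, 0.0743 of Gfap and 1.19 of Rnd3, against 8.14, 3.50 and 5.60. Both sets of library 2 barcodes come from the same library and share its dissociation and free RNA, so they are not replicates.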

How the data were processed

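The authors deposited 1 matrix of UMI counts (25399 genes, 41444 barcodes), made with Cell Ranger 3.1.0 per the file headers. The build Rnor_6.0 and the tools CASAVA 1.8 and Seurat appear, with no role, in the submitters' processing notes. Here counts were summed over the members of a library and scaled to 10,000 UMIs. Ratios used a floor of 3 UMIs a side in the fold limit, the medians and the log2 ratios of single genes. Folds printed for genes with 1 or 2 UMIs on a side (Csrp2, Sostdc1) came from the UMIs themselves. An "at least" fold is the interval bound nearest to no difference. A gene was past the fold where its ratio reached 2 and its exact 95% binomial interval excluded 1. Genes named between libraries 1 and 2 were the 12 on each side with the interval bound furthest from no difference, found in at least 10% of members and at least 2 times the rest of their library. Shares of cells were also taken with each cell thinned to 2000 UMIs. The ratio step was run on simulated counts with counting error only. That run had no spread between cells, so it does not cover genes with most UMIs in 1 cell. Members and the 15 gene lists (220 of 223 genes found) were chosen with earlier results of these data known. PCR duplicates are removed by UMIs, but cells of 1 library are not replicates. Tools were scipy 1.17.1, numpy 2.4.6, scanpy 1.11.5 (Scrublet), pandas 2.3.3 and matplotlib 3.10.9 under Python 3.11.15. Some genes are not reported here. Alternatives changed the cell limits, gene minimum, scale, depth and fold.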

Additional observations from a re-analysis of the deposited data

How the results depend on the processing

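No paired analysis was possible because each group has 1 library and barcodes carry no replicate number. The 24 named genes and the medians of immediate early, antigen presentation and chemokine genes kept their direction in the alternatives run for them, 10 for each gene. Of 240 such gene values, 39 left the counting interval. In all 10, 23 of the 24 genes kept a ratio of at least 2-fold with the floor, a count that required no interval to exclude 1. Mylip was the exception (-0.99 when thinned). The 24 genes were picked as furthest apart in the same cells, so these counts are no independent check. For named genes with 0 UMIs in library 2, the direction without members carrying other markers was also fixed by the floor and the UMI totals. Log2 ratios ran from -6.92 to -1.22 for G0s2, -5.78 to -1.64 for Gfap, -5.34 to -2.375 for Csrp2, -4.155 to -1.97 for Sparcl1 and 2.26 to 5.09 for Pmp2. The -1.22 of G0s2, and most of the -1.64 of Gfap, came from the floor and the UMI totals of the 2 libraries. Medians nearer 0 changed sign in some of the alternatives, among them those of regulators, immature and repair, growth factor, sheath, inherited neuropathy, cell cycle and matrix genes. With at least 1000 detected genes the shares were 0.570% and 2.23% in libraries 2 and 3. With at least 20 per 10,000 of the rule genes, 154 of 929 tested genes were higher in library 1, medians were 0.21 for compact myelin, 0.92 for regulators, 0.54 for immature and repair, 0.93 for channels, 0.59 for inherited neuropathy and -1.75 for antigen presentation genes, and the shares of libraries 1 and 3 were 0.366% and 1.16%. Without called doublets the antigen presentation median was -1.73. Without members carrying markers of other cell types, 61 of 714 genes were higher in library 1, medians were 0.21 for compact myelin, 0.51 for regulators, 0.030 for matrix, 0.43 for inherited neuropathy, 1.89 for immediate early and -0.41 for antigen presentation genes, and the shares of libraries 1 and 3 were 0.122% and 1.17%. With the neuronal limit dropped, an alternative chosen after seeing the data, 427 of 4094 genes were higher in library 2, the medians of antigen presentation and chemokine genes were -1.16 and -2.09, and the shares of libraries 2 and 3 were 2.445% and 3.41%. A minimum of 5 UMIs a gene gave 308 of 5083 genes higher in library 2 and medians of -1.94 for chemokines and -1.09 for the cell cycle. A minimum of 100 gave 17 and 53 of 282 genes higher in libraries 2 and 1 and medians of 1.10 for immature and repair, 0.87 for inherited neuropathy and 0.66 for cell cycle genes. With every cell weighing the same, the antigen presentation median was -2.42. Centred on the median gene, 211 of 1670 genes were higher in library 2 and the immediate early median was 1.47. Thinned to 2000 UMIs, 66 and 170 of 874 genes were higher in libraries 2 and 1, and medians were 0.77 for regulators, 0.67 for inherited neuropathy, -1.73 for antigen presentation and -2.37 for chemokine genes. At 4-fold, 32 and 119 genes were past the limit. The number of genes tested thus ran from 282 to 5083, against 1670 in the main analysis, and beyond that the cause was not tested. Depth limits library 2 most: its 23 cells hold 110268 UMIs, so a count of 0 there allows up to 0.3345 per 10,000.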
